A study of Rattus norvegicus with 70 samples.

Results

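The 38 genes described here are targets of the nuclear receptor PPAR alpha (peroxisome proliferator-activated receptor alpha) together with enzymes and carriers of fatty acid oxidation. They were chosen by gene symbol, and each of the 38 matched among the 17048 gene rows of the deposited count table. The study measured mRNA in Sprague-Dawley rats at postnatal day 63 with 3′ tag sequencing, in which a library holds about 1 read position per transcript, near its end. Liver, kidney and thyroid were taken from both sexes, testis from males and ovary from females, which gave 70 libraries. Bisphenol A (BPA), bisphenol F and bisphenol S are related compounds used in plastics and resins. The Mix group received BPA at 160, bisphenol F at 160 and bisphenol S at 180 mg/kg per day through the dam. In the BPA group, dams received BPA alone at 500 mg/kg per day, and vehicle rats (VC) received the carrier. Dams were dosed by mouth between gestation day 6 and lactation day 6, and the pups themselves were dosed at 250 mg/kg per day between postnatal days 7 and 63. Each group of an organ and sex held 3 rats, except that female kidney had 2 BPA and 2 VC rats. Litters had been reduced to 3 male and 3 female pups, and the labels used here do not give the litter of a rat, so rats of a group may be litter mates and the p-values measure the spread between these samples.

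PPAR alpha is a transcription factor that binds fatty acids and fibrate drugs and, paired with the retinoid X receptor, switches on genes for burning fat. In liver its targets carry fatty acids into mitochondria (Cpt1a, Cpt2, Slc25a20), shorten them there (Acadm, Hadha, Acaa2) or in peroxisomes (Ehhadh, Acaa1a, Acaa1b), and oxidise their far end (the Cyp4a enzymes). In rats and mice, agonists of the receptor raise these genes strongly and enlarge the liver, and kidney proximal tubule uses the same programme for its energy.

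Total counts ran between 4803807 and 10929957 per library, and the members together made up between 1994 and 26150 CPM (counts scaled to a common library total). Ribosomal RNA took between 0.660% and 37.2% of the counts of a library, and this share was not even between groups in male kidney, female thyroid and ovary. Each organ's own marker list was high where the labels place it, with summed levels of 69070 to 166300 CPM for 6 liver markers in liver, led by Alb and Ttr in males and by Alb and Apoc3 in females. Levels within an organ and sex are CPM scaled by the trimmed mean of M values (TMM), and levels across organs are plain CPM, both per transcript and not divided by gene length. A gene is said to rise or fall where edgeR's quasi-likelihood test gave a Benjamini-Hochberg adjusted p below 0.05 over all genes tested, and every adjusted p below is from that test unless DESeq2 is named. Where a DESeq2 count of members stands without the share of all genes that DESeq2 called, it is not a result about the members.

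The start regions of 4 members are shown because the clearest differences in liver and kidney lay in the Cyp4a genes, and because Fabp1 carries the only match to a PPAR-type repeat. They are RefSeq sequences of the rat assembly GRCr8, each 250 bases before to 50 bases after the annotated start, read 5′ to 3′ on the gene's strand. Of the 38 members, 32 had such a window. Capitals mark the hexamer AGGTCA in the Cyp4a genes and the match to the repeat AGGNCANAGGNCA, on the opposite strand, in Fabp1.
Cyp4a2, chr5:134170859-134171158, minus strand: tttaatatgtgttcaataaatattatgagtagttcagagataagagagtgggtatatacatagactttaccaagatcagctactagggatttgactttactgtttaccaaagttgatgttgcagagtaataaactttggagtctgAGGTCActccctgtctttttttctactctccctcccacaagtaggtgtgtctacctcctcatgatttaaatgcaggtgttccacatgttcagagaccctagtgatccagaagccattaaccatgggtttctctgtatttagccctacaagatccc
Cyp4a3, chr5:134352187-134352486, minus strand: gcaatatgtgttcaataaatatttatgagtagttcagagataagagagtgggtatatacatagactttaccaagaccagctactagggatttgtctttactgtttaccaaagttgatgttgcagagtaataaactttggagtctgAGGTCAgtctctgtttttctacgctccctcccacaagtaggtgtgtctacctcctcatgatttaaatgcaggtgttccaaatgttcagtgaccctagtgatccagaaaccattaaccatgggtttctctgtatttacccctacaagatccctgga
Cyp4a8, chr5:133970177-133970476, minus strand: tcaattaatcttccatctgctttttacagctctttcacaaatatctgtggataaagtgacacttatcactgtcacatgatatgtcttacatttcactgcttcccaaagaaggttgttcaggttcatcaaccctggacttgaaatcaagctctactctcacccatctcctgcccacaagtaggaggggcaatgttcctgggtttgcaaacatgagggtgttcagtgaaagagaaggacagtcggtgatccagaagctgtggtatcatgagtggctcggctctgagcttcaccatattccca
Fabp1, chr4:104749090-104749389, plus strand: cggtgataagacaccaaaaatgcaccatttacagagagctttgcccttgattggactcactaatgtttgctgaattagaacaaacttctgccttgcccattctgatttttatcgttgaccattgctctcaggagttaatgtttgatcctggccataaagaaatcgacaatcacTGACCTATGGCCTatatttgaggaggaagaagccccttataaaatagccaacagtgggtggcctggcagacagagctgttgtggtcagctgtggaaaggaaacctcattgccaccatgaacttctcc
The Cyp4a2 and Cyp4a3 windows had 284 identical bases in 305 aligned columns (93.1%), with the hexamer starting 105 bases before the start in both. Cyp4a8 had 189 identical bases in 323 columns with Cyp4a2 (58.5%) and no AGGTCA on either strand. Searched on both strands, AGGTCA occurred in 11 of the 32 members with a window and in 16.2% of 33469 rat windows of the same length. The repeat AGGTCANAGGTCA, which contains that hexamer at both ends, occurred in 0 of the 32 members and in 0.0538% of the windows. Its looser form AGGNCANAGGNCA occurred in Fabp1, 77 bases before the start, and in 0.415% of the windows. These are matches of letters and not shown sites of binding.

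In vehicle rats more members had their highest level in liver than in any other organ. Their summed level in male kidney, at 20700 to 23300 CPM, overlapped male liver (14820 to 21900 CPM) and lay above female liver (13050 to 14460 CPM). In female kidney the sum was lower, at 6211 to 6806 CPM. Kidney sums were led by Cyp4a3 and Cyp4a2, with medians of 6463 and 6025 CPM over both sexes, a near-identical pair with uncertain counts. Liver had the highest mean CPM of the 5 organs for 21 of the 38 members, against 7.03% of 13451 genes overall. For 7 of them every liver library lay above every library of the other organs, against 3.13% of all genes. These 7 were Cpt1a, the gate of fatty acid entry into mitochondria, Acaa1a, a peroxisomal thiolase, Cyp4a1, Fabp1, Acsl1, which activates fatty acids with coenzyme A, and the regulators Fgf21 and Creb3l3. The liver libraries were led by Fabp1, the liver fatty acid binding protein, at 3316 to 4407 CPM with a median of 4077, and by Acsl1 at 1571 to 2764 CPM with a median of 1972. Kidney was highest for 9 members (21% of all genes), and Cyp4a8, Fabp3 and Vnn1 stood apart there (5.98% of all genes). Thyroid was highest for 4 members (22.8% of all genes), testis for 3 (31.5%) and ovary for 1 (17.7%). With TMM scaling over the 70 libraries, liver was highest for 28 members (18.3% of all genes), and 19 stood apart (6.85%), so both the members' numbers and those of all genes depend on the scaling.

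**Figure D1:**
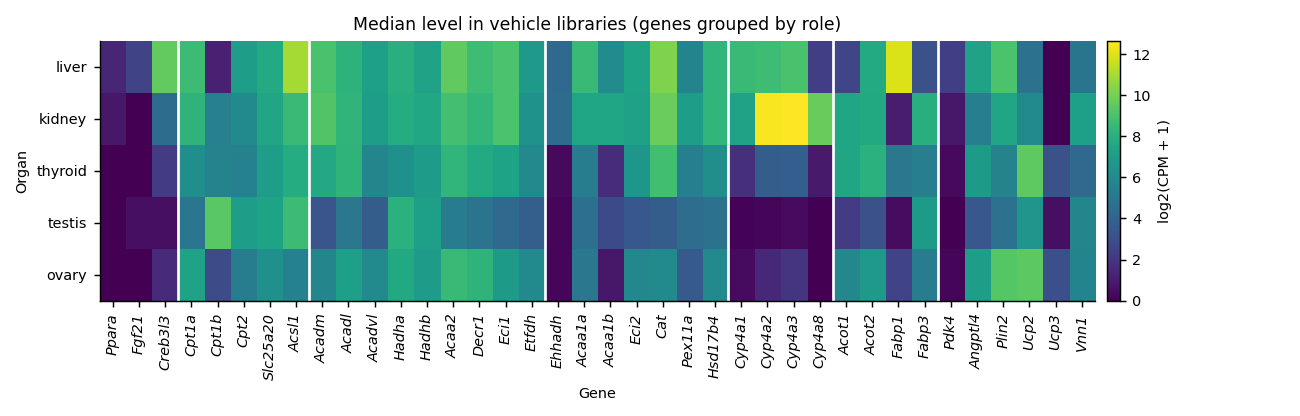
Heat map of the median level of the 38 members in vehicle rats, as log2(CPM + 1), with the members across, grouped by role, and the 5 organs down the page. By mean level liver is the highest organ for 21 members and kidney for 9, and the Cyp4a genes are low outside liver and kidney.

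The most abundant members in the other organs were in part other genes, though Acsl1 was among them in testis as in liver. In kidney these were Cyp4a3 at 458.5 to 7629 CPM (median 6463) and Cyp4a2 at 254 to 7040 CPM (median 6025), fatty acid omega-hydroxylases whose ranges span the sexes. In thyroid they were Ucp2, a mitochondrial carrier, at 601.5 to 1133 CPM, and catalase (Cat) at 422 to 579 CPM. Testis was led by Cpt1b, the muscle form of the carnitine transferase, at 672 to 713 CPM, and by Acsl1 at 373 to 414 CPM. Cpt1b was the member that stood apart in testis, where 24.1% of all genes do. Ovary was led by Ucp2 at 619.5 to 879 CPM and by the lipid droplet protein Plin2 at 537 to 845 CPM. The 4 Cyp4a genes were near 0 in testis and ovary: the highest vehicle value there was 6.15 CPM, for Cyp4a3 in ovary. Cyp4a1 had 251 to 566 CPM in liver and 81.6 to 233 CPM in kidney, and Cyp4a8 had 0 to 14.2 CPM in liver and 482.5 to 1066 CPM in kidney.

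Counts of near-identical members are uncertain, because the sources used here do not say how reads that fit several places were counted. Cyp4a3 was at least as high as Cyp4a2 in 70 of 70 libraries, and the counts of both were the same number in 10 libraries where they were above 0. Acot1 and Acot2, a cytosolic and a mitochondrial thioesterase, and Acaa1a and Acaa1b are further such pairs. Ppara itself was scarce, at 0 to 3.65 CPM over the liver and kidney libraries, and it was called in none of the comparisons that tested it in those organs. Fgf21, a fasting hormone of the liver, was at 0 in the kidney libraries of every group and at 0 to 25.2 CPM in liver.

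The vehicle rats showed a large sex difference in the omega-hydroxylases. In vehicle liver, Cyp4a2 had 2170, 1436 and 866.5 CPM in males and 32.5, 32.7 and 21.8 CPM in females. Cyp4a3 had 2356, 1591 and 1020.0 CPM in males and 97.6, 93.3 and 114 CPM in females. The sexes did not overlap for either gene. In the joint fit of both sexes Cyp4a2 was 54.2-fold higher in males (log2 5.76 ± 0.42 SE, adjusted p = 3e-09) and Cyp4a3 was 17.2-fold higher (log2 4.10 ± 0.35, adjusted p = 4.68e-08). Cyp4a1, another omega-hydroxylase of the same cluster, had 385, 253.5 and 270 CPM in males and 432, 355 and 623 CPM in females, with ranges that overlap.

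Cyp4a8 had 9.49, 6.60 and 15.3 CPM in male vehicle liver and 0.362, 0 and 0 CPM in female vehicle liver. That is 307 counts in males and 3 counts in females, a scaled ratio of 71.0 with a 95% counting interval of 24.1 to 346 (adjusted p = 1.12e-05). The fitted log2 difference of 6.18 became 9.49 without female VC replicate 1, the library that holds the 3 counts. Pdk4, the kinase that turns off glucose oxidation when fat is burned, ran the other way. It had 0.542, 1.10 and 0.519 CPM in male and 9.18, 7.69 and 15.9 CPM in female vehicle liver (log2 −3.78 ± 0.45, adjusted p = 8.22e-06). So 3 members were higher and 1 was lower in males among 37 tested, where 2.19% and 2.04% of all genes were. Each of these 4 differences passed in 18 of 18 fits that left out 1 library.

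Vehicle kidney had the same direction for Cyp4a2, Cyp4a3 and Pdk4. Cyp4a2 had 5956, 5282 and 6236 CPM in males and 791.5 and 212 CPM in females (11-fold, log2 3.45 ± 0.52, adjusted p = 0.000856). Cyp4a3 had 6527, 5667 and 6757 CPM in males and 1051 and 383 CPM in females (8.32-fold, log2 3.06 ± 0.42, adjusted p = 0.00045). The lowest male library was above the highest female library by more than the whole range within either sex. Both passed in 16 of 16 fits without 1 library. Without female VC replicate 1 the log2 differences were 4.72 and 3.98, and without female VC replicate 2 that of Cyp4a2 was 2.80.

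Pdk4 had 0.721, 0.0858 and 0.208 CPM in male and 9.51 and 3.10 CPM in female vehicle kidney, from 10 and 67 counts. The scaled ratio of the summed counts was 0.0548 with a 95% counting interval of 0.0252 to 0.107 (fitted log2 −4.25 ± 0.88, adjusted p = 0.00927). Pex11a, a peroxisome division factor, had 147, 124 and 116 CPM in males and 53.8 and 67.8 CPM in females (2.00-fold, adjusted p = 0.0102). Acaa1b had 230, 157 and 199.5 CPM in males and 116 and 45.8 CPM in females (2.28-fold, log2 1.19 ± 0.33, adjusted p = 0.0385). Of 36 members tested, 4 were higher and 1 was lower in males, against 4.08% and 2.05% of all genes. The calls of Pdk4 (log2 −3.22, adjusted p = 0.0727) and Pex11a (adjusted p = 0.0657) were lost without female VC replicate 1, and the log2 difference of Pdk4 was −5.36 without male VC replicate 1 and −4.85 without female VC replicate 2. That of Acaa1b ranged between 0.67 and 2.03 and its call was lost without male VC replicate 1, male VC replicate 3 or female VC replicate 2. The female vehicle libraries differed in other ways, with liver markers summing to 957 CPM in replicate 1 and 168 CPM in replicate 2, and their part in these values was not tested.

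**Figure D2:**
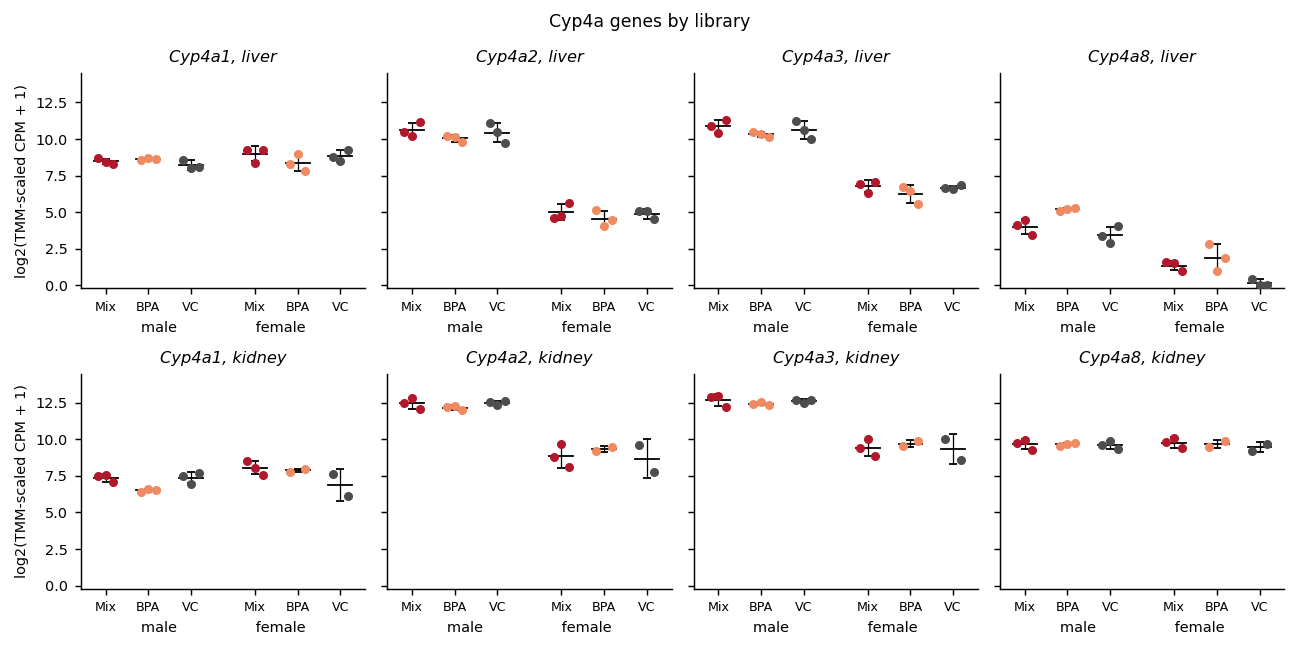
Levels of Cyp4a1, Cyp4a2, Cyp4a3 and Cyp4a8 by library as log2(TMM-scaled CPM + 1), liver above and kidney below, males left of females, and Mix, BPA and VC in that order; points are libraries, lines are group means and bars are 1 SD. Cyp4a2 and Cyp4a3 are high in male liver and kidney in each treatment group, and Cyp4a8 in male liver is at 33.5 to 38.7 CPM under BPA, above the 6.60 to 15.3 CPM of VC.

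In male liver, BPA was followed by a higher level of a single member, Cyp4a8. It had 33.5, 36.5 and 38.7 CPM in BPA males and 9.49, 6.60 and 15.3 CPM in VC males, with 16.6, 20.6 and 10.1 CPM in Mix males. The BPA and VC groups did not overlap, and the Mix values reached into the VC range. Cyp4a8 rose 3.50-fold under BPA (log2 1.81 ± 0.31 SE, adjusted p = 0.0215), the only call among 37 members tested, where 0.228% of 9669 genes were called, and 3 members had an unadjusted p below 0.05 (7.58%). The call held in 4 of 9 fits without 1 library and was lost without VC replicate 1, VC replicate 2 or any of the 3 BPA libraries, with adjusted p between 0.00757 and 0.145. With the replicate number as a block the adjusted p was 0.0842.

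The rest of the programme in male BPA liver showed no common shift. Of the 37 members, 20 had a positive and 17 a negative log2 difference, with a median of 0.05 beside −0.01 over all genes, and 2 lay wholly above and 2 wholly below VC (6.42% and 7.46% of all genes). Cpt1a had 330.0, 371 and 467 CPM in BPA and 355, 458 and 444 CPM in VC males, which overlap. Pdk4 had 2.16, 2.81 and 1.02 CPM in BPA and 0.542, 1.10 and 0.519 CPM in VC males (log2 1.43, not called). Acot1 was variable, with 1.90, 2.07 and 1.31 CPM in BPA and 15.8, 0.550 and 4.15 CPM in VC males. Angptl4, a secreted inhibitor of lipoprotein lipase, had 173, 164 and 110 CPM in BPA and 135, 66.9 and 90.2 CPM in VC males, which overlap. Vnn1, a pantetheinase and a sensitive target of the receptor in mouse liver, had 30.2, 26.5 and 23.2 CPM in BPA and 45.2, 18.7 and 33.7 CPM in VC males. Fabp1 had 3480.0, 3038 and 3329 CPM in BPA and 3867, 3727 and 3570.0 CPM in VC males, with each BPA library below each VC library and no call. Cyp4a1 had 383, 408 and 399 CPM in BPA and 385, 253.5 and 270 CPM in VC males, and Cyp4a2 had 1200.0, 1108 and 890.5 CPM in BPA and 2170.0, 1436 and 866.5 CPM in VC males, which overlap. Ehhadh, the peroxisomal bifunctional enzyme, ranged between 10.7 and 53.6 CPM over the 9 male libraries with every group overlapping.

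Mix left the members of male liver without a call. Against VC, edgeR called 0 of 37 (0.321% of all genes), 3 had an unadjusted p below 0.05 (6.71% of all genes) and DESeq2 called 0. The smallest p-values belonged to Pdk4, at 3.65, 2.38 and 2.42 CPM in Mix and 0.542, 1.10 and 0.519 CPM in VC males (log2 1.91, adjusted p = 0.388), and to Angptl4, at 76.1, 36.7 and 62.5 CPM in Mix males (log2 −0.74, adjusted p = 0.670). Pdk4 lay higher in each Mix library than in any VC library, and Angptl4 overlapped. Against BPA, edgeR called 0 (0.0103%), 6 had an unadjusted p below 0.05 (6.18%), and DESeq2 called 2, Cyp4a8 and Angptl4. Their edgeR values were log2 −1.20 (adjusted p = 0.272) for Cyp4a8 and −1.35 (adjusted p = 0.186) for Angptl4.

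In female liver, no member passed in edgeR under either treatment, although the values of BPA females leaned low. For BPA against VC, 9 of 37 members had a positive and 28 a negative log2 difference, with a median of −0.26 beside 0.00 over all genes. The 9 members of mitochondrial oxidation all had negative values, between −0.84 and −0.12. Mitochondrial oxidation genes outside the members went both ways. Echs1 had a mean of 261 CPM in BPA and 224 CPM in VC, and Etfb had 475 and 536 CPM. EdgeR called 0 (0.419% of all genes), 8 had an unadjusted p below 0.05 (11.4%), and DESeq2 called 4, namely Acadm, Etfdh and Fabp1 lower and Cyp4a8 higher. The share of all genes that DESeq2 called there is not given. Wholly below VC lay 6 members and wholly above lay 1 (8.06% and 7.65% of all genes).

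Fabp1 had the smallest p in that comparison, at 1714, 1805 and 2719 CPM in BPA and 4165, 4480.0 and 3877 CPM in VC females. The groups did not overlap, and the level under BPA was 0.498 of that in VC (log2 −1.01 ± 0.24, adjusted p = 0.0949, and 0.0390 to 0.315 without 1 library). Acadm, the medium-chain acyl-CoA dehydrogenase, had 252, 236 and 297 CPM in BPA and 480.2, 470.0 and 351 CPM in VC females (log2 −0.73, adjusted p = 0.121). Etfdh, which passes electrons of fatty acid oxidation to the respiratory chain, had 94.5, 69.96 and 63.7 CPM in BPA and 153, 154 and 102 CPM in VC females (log2 −0.84, adjusted p = 0.138). For all 3 genes each BPA library was below each VC library. The 6 liver markers, among them Alb and Apoc3, also summed lower in BPA females, at 82660, 79930 and 85800 CPM against 143900, 136000 and 120400 CPM in VC females. Mix females lay wholly below VC as well, at 69070, 113400 and 100400 CPM. The macrophage list summed to 310 to 405 CPM in BPA, 230 to 264 CPM in Mix and 255 to 331 CPM in VC. The part of these shifts in the member values was not tested. In tissue RNA of this kind, fewer cells of a type and less RNA per cell cannot be told apart.

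Cyp4a8 in female liver stayed far below the male level. It had 1.99, 1.82 and 0.975 CPM in Mix females, 6.18, 0.927 and 2.63 CPM in BPA females and 0.362, 0 and 0 CPM in VC females. Every treated library was above every VC library. Summed counts were 83 under BPA against 3 in VC, a scaled ratio of 24.7 with a 95% counting interval of 8.16 to 122, and 40 under Mix against 3, a ratio of 11.7 with an interval of 3.72 to 59.0. These intervals cover counting error only, and with 58 of the 83 BPA counts in 1 library the edgeR test gave adjusted p = 0.0997 for BPA and 0.486 for Mix. Averaged over both sexes, Cyp4a8 rose under BPA (fitted log2 3.13 ± 0.47, adjusted p = 0.00178), the only call among 37 members (0.339% of all genes), and passed in 18 of 18 fits without 1 library. The fitted value leans on the 3 female VC counts and was 4.79 without female VC replicate 1. For Mix the value averaged over the sexes was 2.01 ± 0.51 (adjusted p = 0.151): edgeR called 0 of 37 members (0.149%), 3 had an unadjusted p below 0.05 (7.37%), and DESeq2 called Cyp4a8 alone.

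Mix females had 22 positive and 15 negative values against VC. EdgeR called 0 of 37 (0.0523%), 3 had an unadjusted p below 0.05 (6.62%) and DESeq2 called 0. The thioesterase Acot1 had 109, 28.9 and 42.6 CPM in Mix, 49.6, 7.99 and 1.24 CPM in BPA and 3.38, 7.69 and 8.81 CPM in VC females. Each Mix library lay above each VC library, and the BPA libraries spanned both (Mix against VC log2 3.19 ± 0.86, adjusted p = 0.294). Against BPA, 32 of 37 members had a positive value in Mix, with a median of 0.25, and 6 lay wholly above BPA (6.53% of all genes). EdgeR called 0 there (0.0%), 7 had an unadjusted p below 0.05 (6.50%) and DESeq2 called 0. The smallest p-values were those of Acadm, at 400, 384 and 430 CPM in Mix females (log2 0.63, adjusted p = 0.525), and Pdk4, at 14.7, 8.30 and 9.63 CPM in Mix and 6.29, 4.87 and 5.26 CPM in BPA females (log2 0.99, adjusted p = 0.635).

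Other members of female liver had wide ranges within groups. Cpt1a had 875, 447 and 552 CPM in Mix, 652, 564 and 233 CPM in BPA and 374, 368 and 539 CPM in VC females. Cyp4a1 had 622, 335 and 616 CPM in Mix, 312, 506 and 228.5 CPM in BPA and 432, 355 and 623 CPM in VC females. Ehhadh had 80.1, 57.6 and 34.5 CPM in Mix, 17.7, 19.3 and 26.1 CPM in BPA and 23.9, 14.9 and 137 CPM in VC females. Groups overlapped for Cpt1a and Cyp4a1, and Mix was wholly above BPA for Ehhadh. Cyp4a2 and Cyp4a3 stayed at female levels under both treatments, at no more than 48.3 and 136 CPM. Angptl4, Vnn1 and Fgf21 reached 225, 38.5 and 25.2 CPM over the 9 libraries and none of them was called.

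The effect of BPA was also compared between the sexes in liver. EdgeR called 0 of 37 members for male minus female effect (0.209% of all genes), 7 had an unadjusted p below 0.05 (9.62%), and DESeq2 called Pdk4. Pdk4 had values of opposite sign, log2 1.43 in males and −0.99 in females, a difference of 2.41 (adjusted p = 0.133). For Mix, edgeR called 0 (0.189%), 4 had an unadjusted p below 0.05 (6.33%) and DESeq2 called 0. Averaged over the sexes, Mix against BPA gave 0 calls in edgeR (0.0299%), 8 at an unadjusted p below 0.05 (6.23%) and 0 in DESeq2.

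In male kidney, BPA rats had lower values of several oxidation genes, and none of them passed in edgeR. Of 35 members tested, 10 had a positive and 25 a negative log2 difference to VC, with a median of −0.20 beside 0.01 over all genes. In all, 15 lay wholly below VC and 1 wholly above, where 17.4% and 17.2% of 11000 genes did. EdgeR called 0 (0.136% of all genes), 11 had an unadjusted p below 0.05 (21%), and DESeq2 called 9 (7.04% of the genes it adjusted), all lower: Cpt2, Acaa1b, Acaa2, Cyp4a1, Acot1, Vnn1, Decr1, Eci1 and Pex11a. Without Mix replicate 1 or Mix replicate 2, edgeR also called 9, where 7.85% and 4.28% of all genes were called. These libraries are outside the comparison and enter it through the shared gene filter, scaling and spread.

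Pex11a had 55.6, 76.5 and 76.2 CPM in BPA and 147, 124 and 116 CPM in VC males, with 74.1, 83.7 and 87.3 CPM in Mix males. Eci1, an isomerase needed for unsaturated fatty acids, had 283, 294.5 and 271 CPM in BPA and 815, 476.5 and 650 CPM in VC males, with 371, 705 and 496 CPM in Mix males. Every BPA library was below every VC library for both, by log2 −0.89 ± 0.18 (adjusted p = 0.0664) for Pex11a and −1.19 ± 0.25 (adjusted p = 0.0713) for Eci1. Mix was wholly below VC for Pex11a and overlapped it for Eci1.

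The thiolases Acaa2 and Acaa1b, Decr1 and the entry enzyme Cpt2 also had lower values in BPA than in VC males. A further thiolase, Acaa1a, is not among the DESeq2 calls above. Of the other entry enzymes, Cpt1a and Cpt1b had log2 differences of 0.06 and 0.33 in males. Averaged over the sexes, the BPA values of Acsl1 and Slc25a20 were −0.19 and −0.03. Their male minus female differences were −0.56 and −0.64, not called, so these averages do not give the male values. Acaa2, the mitochondrial thiolase, had 413, 771 and 471.5 CPM in Mix, 256.5, 306 and 244 CPM in BPA and 599, 400 and 523 CPM in VC males. Acaa1b, its peroxisomal counterpart, had 246, 344 and 228 CPM in Mix, 80.6, 134 and 92.2 CPM in BPA and 230, 157 and 199.5 CPM in VC males. Decr1, a reductase for unsaturated fatty acids, had 198.9, 391 and 279 CPM in Mix, 162, 198.6 and 185 CPM in BPA and 344, 293 and 312 CPM in VC males. The BPA group was the low one for all 3 genes and overlapped neither of the other groups, though for Decr1 it came close to Mix. Cpt2, which releases fatty acids from carnitine inside mitochondria, had 44.1, 57.7 and 33.3 CPM in Mix, 27.2, 32.9 and 41.1 CPM in BPA and 68.3, 55.9 and 63.8 CPM in VC males. Acot1 had 54.7, 144.5 and 116 CPM in Mix, 79.5, 91.1 and 102 CPM in BPA and 188, 186 and 158 CPM in VC males, so both treated groups lay below VC.

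Compared directly, 3 members were higher in Mix than in BPA male kidney. Acaa1b was 2.67-fold higher (log2 1.41 ± 0.24, adjusted p = 0.0119), Acaa2 was 2.05-fold higher (1.04 ± 0.24, adjusted p = 0.0450) and Cyp4a1 was 1.85-fold higher (0.89 ± 0.21, adjusted p = 0.0450). Cyp4a1 had 178, 192 and 132 CPM in Mix, 85.2, 94.7 and 90.6 CPM in BPA and 175, 124.5 and 207 CPM in VC males. These were 3 of 35 members, where 2.57% of all genes were higher and 2.93% were called in either direction. The call of Acaa1b was lost without BPA replicate 3 (adjusted p = 0.0647), that of Acaa2 held only without Mix replicate 1 (adjusted p up to 0.156), and that of Cyp4a1 held only without VC replicate 2, Mix replicate 1 or Mix replicate 3 (up to 0.133).

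Other features of the male kidney libraries moved with these values. Ribosomal RNA took 1.42% to 20.2% of counts in Mix, 16.4% to 37.2% in BPA and 1.71% to 3.50% in VC males. With this share in the model all 3 calls were lost, at adjusted p = 0.194 for Acaa1b, 0.614 for Acaa2 and 0.281 for Cyp4a1. The 5 fibroblast markers, led by Dcn and Col1a2, summed to 404 to 573 CPM in Mix, 1106 to 1230 CPM in BPA, with 323 to 497 CPM in VC males. The 6 liver markers, led by Cyp2e1 and Apoc3, summed to 631 to 807 CPM in Mix, 314 to 428 CPM in BPA, with 532 to 672 CPM in VC males. The 6 testis markers, led by Tnp1 and Sycp3, summed to 985 to 1813 CPM in Mix, 122 to 330 CPM in BPA, with 359 to 608 CPM in VC males. The 7 kidney markers, led by Kap and Slc34a1, summed to 12170 to 14530 CPM in Mix, 13450 to 15870 CPM in BPA, with 12340 to 14120 CPM in VC males, which overlap. The part of the ribosomal share and of these cell markers in the member differences was not tested beyond that model.

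Mix against VC gave 15 positive and 20 negative values in male kidney. EdgeR called 0 of 35 (0.0273%), 5 had an unadjusted p below 0.05 (9.20%) and DESeq2 called 0. The smallest p-values were those of Pex11a (log2 −0.66, adjusted p = 0.426) and Acot1 (log2 −0.75, adjusted p = 0.490), and 5 members lay wholly below VC (7.18% of all genes). None of the following members had an edgeR call against VC in male kidney, and Vnn1 is among the 9 that DESeq2 called for BPA. Cpt1a had 252 to 404 CPM in Mix, 242 to 327 CPM in BPA, with 269 to 283 CPM in VC males. Cyp4a2 had 4287 to 7412 CPM in Mix, 4114 to 5081 CPM in BPA, with 5282 to 6236 CPM in VC males, and Cyp4a8 had 629 to 984, 756 to 866.5 and 662 to 935 CPM in the same groups. BPA lay wholly below VC for Cyp4a2, while Cpt1a and Cyp4a8 overlapped between BPA and VC. Angptl4, Ehhadh and Vnn1 had 12.4 to 32.6, 13.0 to 26.3 and 87.2 to 202.4 CPM in Mix, 35.4 to 53.0, 6.07 to 43.0 and 55.8 to 75.7 CPM in BPA, with 32.0 to 41.4, 7.98 to 19.1 and 94.5 to 138 CPM in VC males. Fabp1 was at most 5.70 CPM, and Pdk4 at most 2.96 CPM, with VC values of 0.0858 to 0.721 CPM.

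In female kidney the values leaned the other way, on only 2 BPA and 2 VC libraries. For BPA against VC, 26 of 36 members had a positive and 10 a negative log2 difference, with a median of 0.23 beside −0.02 over all genes. In all, 14 lay wholly above VC and 2 wholly below (22.3% and 22.2% of all genes). EdgeR called 0 (0.0%), 5 had an unadjusted p below 0.05 (16.4%) and DESeq2 called Acaa1b. Acaa1b had 194 and 232 CPM in BPA and 116 and 45.8 CPM in VC females (log2 1.40 ± 0.37, adjusted p = 0.155). Pex11a had 104 and 109 CPM in BPA and 53.8 and 67.8 CPM in VC females (log2 0.80 ± 0.24, adjusted p = 0.176). Eci1 had 557 and 677 CPM in BPA and 499 and 143 CPM in VC females. For all 3 genes both BPA libraries were above both VC libraries.

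VC replicate 2 of female kidney was the lower VC library for several members. It had 68.1 CPM of Cyp4a1 against 197 in VC replicate 1, 54.6 CPM of Vnn1 against 303, 212 CPM of Cyp4a2 against 791.5, and 234 CPM of Acaa2 against 582. Its liver markers were low, as given above, and ribosomal RNA took 37.1% of its counts. Without VC replicate 1, which leaves this library as the lone VC, edgeR called 6 members for Mix (2.92% of all genes) and 7 for BPA (7.15%), with the lone sample assumed to vary like the other groups. Fibroblast markers summed to 391 to 585 CPM in BPA, with 633 to 852 CPM in VC females, the opposite order to males. The part of these features was not tested.

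Mix females had 30 positive and 6 negative values against VC, with a median of 0.41. The 9 members of mitochondrial oxidation were all positive, between 0.19 and 0.91. Outside the members such genes went both ways. Echs1 had a mean of 325 CPM in Mix and 265 CPM in VC, and Etfa had 121 and 180 CPM. EdgeR called 0 of 36 (0.0%), 7 had an unadjusted p below 0.05 (10.4%) and DESeq2 called Hadha, a subunit of the trifunctional protein. Hadha had 242, 248 and 266 CPM in Mix, 158 and 166 CPM in BPA and 125.7 and 181 CPM in VC females (Mix against VC log2 0.72, adjusted p = 0.361; Mix against BPA 0.64, adjusted p = 0.683). Ucp2 had 63.3, 87.0 and 80.3 CPM in Mix and 43.7 and 43.2 CPM in VC females (log2 0.82, adjusted p = 0.323). Mix lay above both other groups for Hadha and above VC for Ucp2. Against BPA, edgeR called 0 (0.0%), 2 had an unadjusted p below 0.05 (7.29%) and DESeq2 called 0, with Cpt1b at 32.4, 88.9 and 67.5 CPM in Mix and 26.2 and 17.9 CPM in BPA females (log2 1.5). Cpt1a had 227, 216 and 193 CPM in Mix, 182 and 212 CPM in BPA and 296 and 203.5 CPM in VC females, with overlap.

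The test of the difference between the sexes called 4 members for BPA in kidney. The male minus female effect was −1.70 ± 0.29 for Pex11a (adjusted p = 0.0108), −2.34 ± 0.45 for Acaa1b (0.0159), −1.44 ± 0.33 for Decr1 (0.0262) and −2.14 ± 0.54 for Eci1 (0.0363), on the log2 scale. Each had a negative value in males and a positive one in females. Of 36 members 28 had a negative difference, with a median of −0.53 beside 0.03 over all genes, and all 9 mitochondrial oxidation enzymes and all 4 Cyp4a genes were among them. The 4 calls compare with 2.57% of all genes lower and 4.73% called in either direction. Decr1 had 238 and 305 CPM in BPA and 185 and 165 CPM in VC females. Cyp4a1 was next at −1.73 (adjusted p = 0.0523).

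These differences depended on single libraries of both sexes. Without female BPA replicate 2 none of the members was called (0.0163% of all genes), and without female VC replicate 1 there were 12 calls (9.06%). Pex11a was lost only without female BPA replicate 2 (adjusted p = 0.0695), and Acaa1b was lost without that library, male VC replicate 1 or female VC replicate 2 (log2 −1.82, adjusted p = 0.0516), and read −3.19 without female VC replicate 1. Decr1 held in 10 of 16 fits and was lost without male VC replicate 1 or 3, male BPA replicate 1, female VC replicate 2 or either female BPA library. Eci1 held in 8 of 16 and was lost without those same libraries or male BPA replicate 2 or 3, at −3.35 without female VC replicate 1 and −1.51 without female VC replicate 2 (adjusted p = 0.0919). For Mix, the difference between the sexes gave 0 calls in edgeR (0.00858%), 11 at an unadjusted p below 0.05 (10.1%) and Pex11a in DESeq2 (log2 −1.13 and adjusted p = 0.334 in edgeR). Plin2 had the other smallest p there (−0.94, adjusted p = 0.334).

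Averaged over the sexes, no member of kidney was called. For BPA, edgeR called 0 of 36 (0.0172%), 0 had an unadjusted p below 0.05 (10.6% of all genes) and DESeq2 called 0, with Acot1 at log2 −0.42 (adjusted p = 0.494) and Cpt2 at −0.34. For Mix, edgeR called 0 (0.00858%), 6 had an unadjusted p below 0.05 (9.43%) and DESeq2 called 0, with Hadha at 0.44 (adjusted p = 0.344) and Acaa1b at 0.71 (adjusted p = 0.370). Mix against BPA gave 0 in edgeR (0.0601%), 5 at an unadjusted p below 0.05 (9.15%) and 0 in DESeq2.

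**Figure D3:**
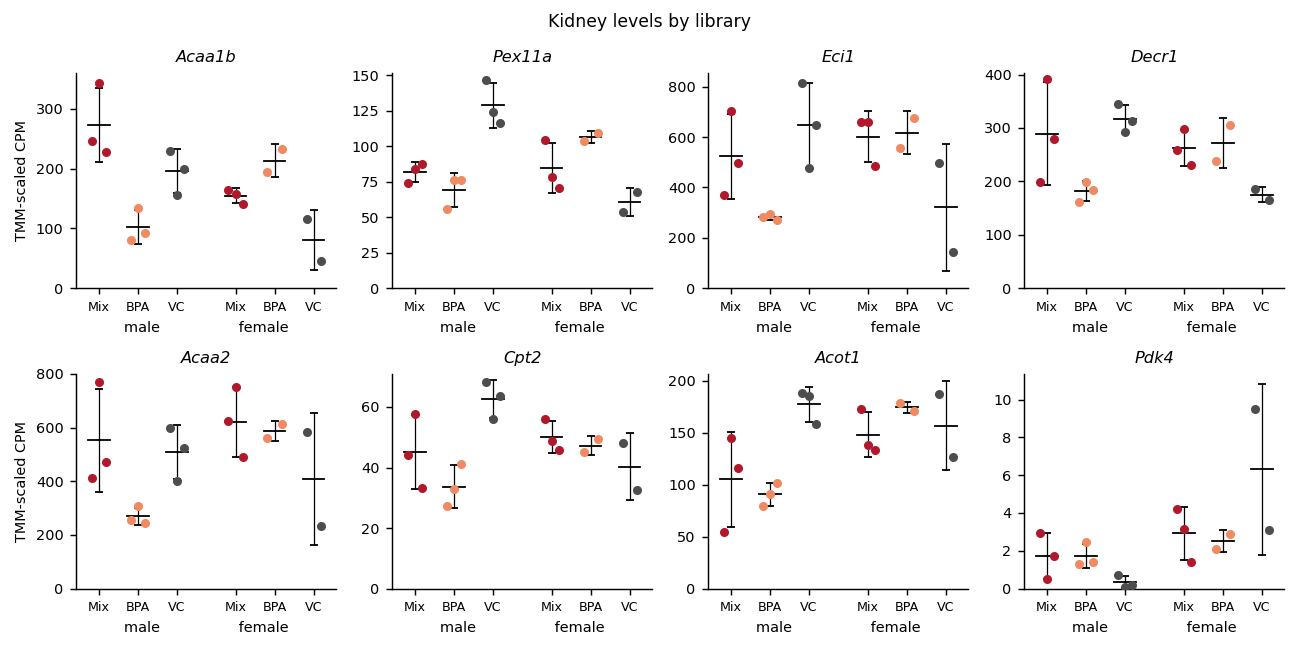
Levels of 8 members by library in kidney, in TMM-scaled CPM on axes that start at 0, for Mix, BPA and VC in males and then females; points are libraries, lines are group means and bars are 1 SD. In males the BPA libraries of Acaa1b (80.6 to 134 CPM) lie below VC (157 to 230 CPM), and in females they lie above (194 and 232 against 45.8 and 116 CPM).

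**Figure D4:**
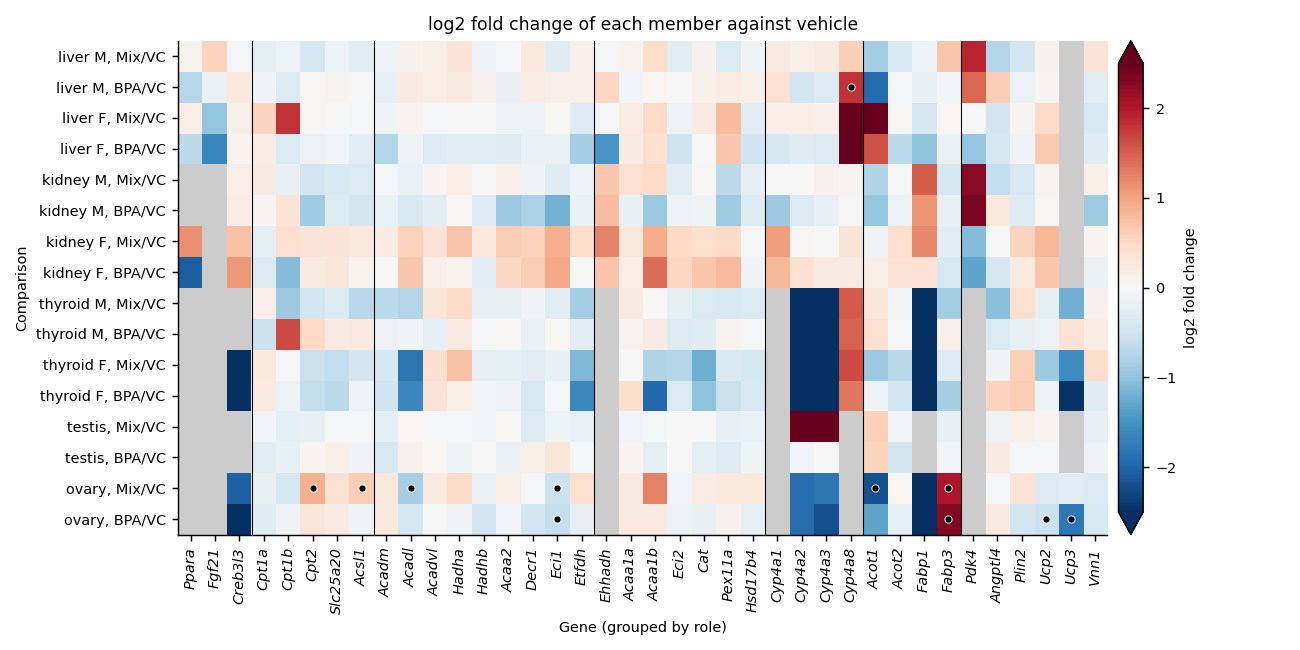
Heat map of the log2 fold change of each member against vehicle, with members across by role and the organ and sex (M, F) comparisons down the page, Mix above BPA; colours end at 2.5 in either direction, grey cells were not tested and black dots mark an adjusted p below 0.05. Dots stand at Cyp4a8 in male liver and in the ovary, where 4 members carry one for BPA and 6 for Mix.

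Thyroid had no called member in either sex. In males, edgeR called 0 of 32 for BPA against VC (0.0%), 4 had an unadjusted p below 0.05 (8.23%) and DESeq2 called 0; Cpt1a had the smallest p, at 52.6, 53.9 and 87.1 CPM in BPA and 110.8, 81.2 and 89.0 CPM in VC males (log2 −0.54, adjusted p = 0.586). For Mix, edgeR called 0 (0.0%), 10 had an unadjusted p below 0.05 (4.96%) and DESeq2 called Angptl4 and Etfdh, both lower, and 15 of 32 members lay wholly below VC (8.14% of all genes). Etfdh had 30.0, 36.3 and 28.6 CPM in Mix and 58.1, 51.6 and 61.5 CPM in VC males (log2 −0.85, adjusted p = 0.727). Each Mix library of Etfdh was below each VC library. In male thyroid, VC replicate 3 had 58.2 CPM of Fabp1, against at most 5.88 CPM in the others, and in that library Cyp4a2 had 30.1 CPM and liver markers summed to 1519 CPM. Testis markers summed to 14230 CPM in BPA replicate 1, against 103 and 42.95 CPM in the other BPA libraries. Fat markers summed to 340.0, 654 and 356 CPM in Mix and 609, 919 and 797 CPM in VC males, and the part of these markers was not tested. In each fit without 1 of the 9 libraries, edgeR again called 0 members. Mix against BPA gave 0 in edgeR (0.0%), 12 at an unadjusted p below 0.05 (13.8%) and Slc25a20, the carnitine carrier, in DESeq2. Cpt1a had the smallest p there, at 117, 94.7 and 104 CPM in Mix males (log2 0.71, adjusted p = 0.304).

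Female thyroid had more uneven tissue. Ribosomal RNA took 11.7% to 23.7% of counts in Mix, 1.93% to 7.41% in BPA and 0.660% to 3.26% in VC females, so Mix lay wholly above both other groups. The liver markers summed to 4092, 1845 and 179 CPM in the 3 VC libraries and to no more than 125 CPM in Mix and 142 CPM in BPA libraries, fat markers to 665, 2197 and 5686 CPM in VC, and muscle markers to 1111, 5313 and 97.2 CPM in VC and up to 8760 CPM in a Mix library. Fabp1, which is also a liver gene, had 219, 358 and 0.137 CPM in VC females and at most 4.22 CPM in the treated ones. For BPA, edgeR called 0 of 33 (0.0%), 10 had an unadjusted p below 0.05 (13.3%) and DESeq2 called 4, with Acadl, the long-chain dehydrogenase, at 147, 285 and 192 CPM in BPA and 237, 772 and 920 CPM in VC females (log2 −1.63, adjusted p = 0.328). For Mix, edgeR called 0 (0.00899%), 12 had an unadjusted p below 0.05 (23%) and DESeq2 called 8 (11.9% of the genes it adjusted). Catalase had 274, 220.0 and 205 CPM in Mix, 220.0, 303 and 293 CPM in BPA and 432, 599.5 and 603 CPM in VC females, so that both treated groups lay below VC (Mix log2 −1.23, adjusted p = 0.0725). Without VC replicate 1 there were 6 calls for Mix, where 18.4% of all genes were called, and 5 for BPA (9.82%). Without VC replicate 3 there were 2 for Mix (0.923%) and 1 for BPA (0.470%). Mix against BPA gave 0 in edgeR (0.0%), 5 at an unadjusted p below 0.05 (5.84%) and 0 in DESeq2, with Acot1 at log2 −0.85 (adjusted p = 0.820). The part of the ribosomal share and of liver, fat and muscle tissue in these values was not tested.

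Testis had Cpt1b, Acsl1 and Hadha as its most abundant members, Hadha at 250.2 to 282 CPM in vehicle rats. By plain CPM it was the organ with the highest mean for Cpt1b, Cpt2 and Hadha. With TMM scaling over the 70 libraries this held for Cpt1b, and liver was highest for Cpt2 and Hadha. For BPA against VC, edgeR called 0 of 29 members (0.0%), 0 had an unadjusted p below 0.05 (12.0% of all genes) and DESeq2 called 0, with Pex11a at 18.4, 18.4 and 13.9 CPM in BPA and 20.2, 21.6 and 21.8 CPM in VC (log2 −0.32, adjusted p = 0.421). Cyp4a3 had 11.4, 3.06 and 2.40 CPM in Mix, 0, 1.05 and 0.129 CPM in BPA and 0, 0.265 and 0.905 CPM in VC. Each Mix library was above each library of the other groups. The log2 values were 3.78 for Mix against VC (adjusted p = 0.464) and 3.78 for Mix against BPA (adjusted p = 0.0776). For Mix against VC edgeR called 0 (0.0%), 2 had an unadjusted p below 0.05 (5.33%) and DESeq2 called 0, and for Mix against BPA these were 0 (0.775%), 5 (17.2%) and 0. Kidney markers, led by Slc12a1 and Lrp2, summed to 40.2, 21.3 and 22.6 CPM in Mix, 13.2 to 16.5 CPM in BPA, with 10.1 to 12.2 CPM in VC testis, and their part in the Cyp4a3 values was not tested. Cpt1b had 555.5, 580.0 and 559 CPM in Mix, 693, 521 and 551 CPM in BPA and 667, 649 and 695 CPM in VC testis.

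The ovary held most of the calls against vehicle. Fabp3, the heart and muscle type fatty acid binding protein, was much higher under both treatments. It had 136, 192 and 206 CPM in Mix, 165, 248.6 and 232 CPM in BPA and 36.6, 47.9 and 46.5 CPM in VC ovaries, and neither treated group came near VC. It rose 4.07-fold in Mix (log2 2.03 ± 0.20, adjusted p = 0.000547) and 4.93-fold in BPA (2.30 ± 0.21, adjusted p = 0.000191), and passed in 9 of 9 fits without 1 library for each. Because both comparisons use the same 3 VC libraries, they are not independent. In all, Mix called 3 members higher and 3 lower of 32, where 4.13% and 4.99% of all genes were (9.12% in either direction), and BPA called 1 higher and 3 lower, where 2.91% and 3.88% were (6.79%).

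Of the 5 members of mitochondrial entry, Cpt2 and Acsl1 rose in Mix ovaries, and Slc25a20 (log2 0.39), Cpt1a (−0.18) and Cpt1b (−0.43) were not called. Cpt2 had 95.2, 98.1 and 84.9 CPM in Mix, 49.6, 72.9 and 62.7 CPM in BPA and 59.1, 46.8 and 44.7 CPM in VC ovaries, and rose 1.85-fold in Mix (log2 0.88 ± 0.17, adjusted p = 0.00973). Acsl1 had 95.9, 68.9 and 76.3 CPM in Mix, 48.2, 54.9 and 43.5 CPM in BPA and 49.2, 56.0 and 51.6 CPM in VC ovaries, and rose 1.54-fold in Mix (0.62 ± 0.16, adjusted p = 0.0291). Both were wholly above VC and BPA in Mix. Without VC replicate 2 the call of Cpt2 was lost (adjusted p = 0.0517), and that of Acsl1 held only without a BPA library or Mix replicate 2 (adjusted p between 0.0197 and 0.129 over the 9 fits). Mix against BPA gave 0.72 ± 0.16 for Acsl1 (adjusted p = 0.0823), with 0 members called in edgeR (0.212% of all genes), 10 at an unadjusted p below 0.05 (12.0%) and 5 in DESeq2.

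Acadl and Acot1 were lower in Mix. Acadl had 89.2, 91.8 and 108 CPM in Mix, 122.5, 125 and 132 CPM in BPA and 189.5, 168 and 154 CPM in VC ovaries, and fell to 0.565 of VC in Mix (log2 −0.82 ± 0.14, adjusted p = 0.00491), in 9 of 9 fits. Acot1 had 14.3, 21.1 and 4.31 CPM in Mix, 42.4, 13.2 and 17.2 CPM in BPA and 46.6, 68.5 and 67.1 CPM in VC ovaries, and fell to 0.220 of VC in Mix (−2.18 ± 0.49, adjusted p = 0.0178). The call of Acot1 was lost without VC replicate 2 or Mix replicate 1 (adjusted p up to 0.0669). Eci1 had 86.9, 113.1 and 94.7 CPM in Mix, 88.7, 114 and 85.7 CPM in BPA and 160.0, 140 and 130.2 CPM in VC ovaries, with all treated libraries below VC. It fell in Mix (log2 −0.55 ± 0.16, adjusted p = 0.0480) and in BPA (−0.58 ± 0.16, adjusted p = 0.0447), calls that held in 2 of 9 and 1 of 9 fits: both without Mix replicate 2 and, for Mix, also without BPA replicate 2.

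The uncoupling protein relatives were lower in BPA ovaries. Ucp3 had 7.66, 7.53 and 6.87 CPM in Mix, 3.09, 2.25 and 2.28 CPM in BPA and 9.50, 8.47 and 8.65 CPM in VC ovaries, and fell to 0.290 of VC in BPA (log2 −1.79 ± 0.35, adjusted p = 0.0121). Ucp2, the most abundant member in ovary, had 679, 592.5 and 634 CPM in Mix, 613, 543 and 507 CPM in BPA and 894, 741 and 789 CPM in VC ovaries, and fell to 0.686 of VC in BPA (−0.54 ± 0.14, adjusted p = 0.0378). BPA and VC did not overlap for either gene, and Mix overlapped BPA for Ucp2. The call of Ucp3 was lost without BPA replicate 2 or BPA replicate 3 (adjusted p up to 0.0535), and that of Ucp2 held only without BPA replicate 1, Mix replicate 1 or Mix replicate 2 (up to 0.161). With ribosomal RNA as a covariate, adjusted p was 0.05003 for Ucp2 and 0.0861 for Ucp3 in BPA, 0.380 for Eci1 in BPA and 0.0957 in Mix, and 0.0761 for Acsl1 in Mix. Ribosomal RNA took 18.7% to 23.9% of counts in Mix, 12.4% to 19.1% in BPA and 20.7% to 29.4% in VC ovaries, so BPA lay wholly below VC. The liver markers, led by Alb and Apoa1, summed to 14.4 to 140 CPM in Mix, 22.3 to 61.8 CPM in BPA and 241, 479 and 27.3 CPM in VC ovaries, and their part was not tested. Plin2, not called, had 1125, 747 and 941 CPM in Mix, 679.5, 510 and 416 CPM in BPA and 859, 643 and 716 CPM in VC ovaries.

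**Figure D5:**
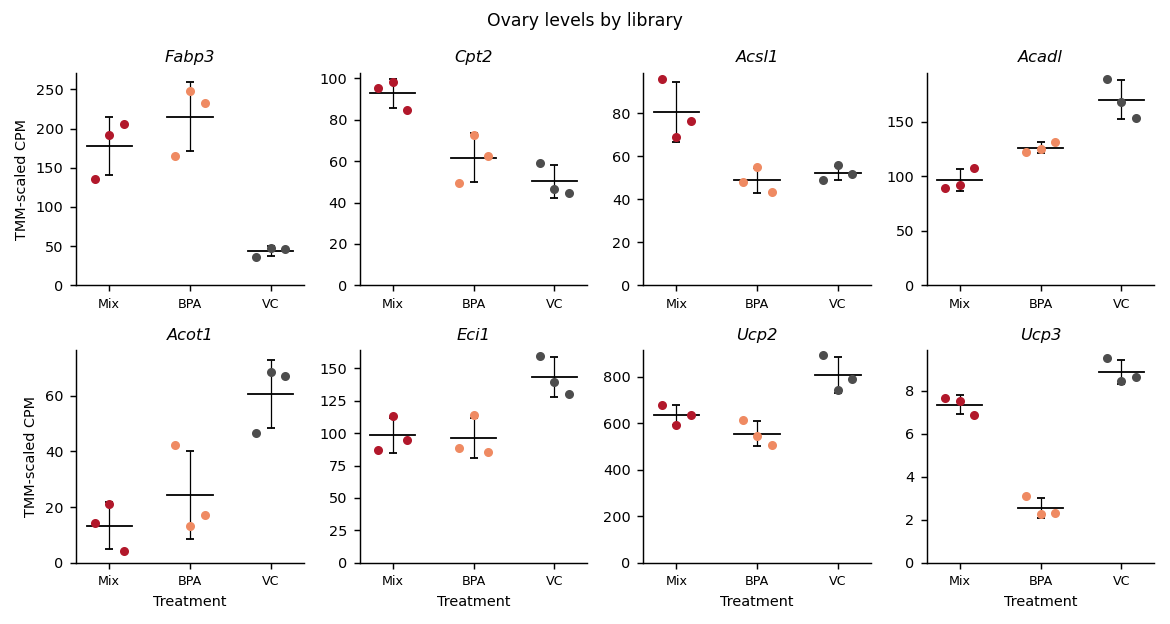
Levels of 8 members by library in ovary, in TMM-scaled CPM on axes that start at 0, for Mix, BPA and VC; points are libraries, lines are group means and bars are 1 SD. Fabp3 lies at 136 to 248.6 CPM in the 6 treated ovaries and at 36.6 to 47.9 CPM in the 3 VC ovaries, and Ucp3 is lowest in BPA.

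A wider list of 89 measured genes of fatty acid oxidation, ketogenesis and PPAR signalling gave few calls on treatment. In liver, 0 of 86 tested were called for BPA or Mix in males (0.228% and 0.321% of all genes) and 0 of 85 in females (0.419% and 0.0523%). In kidney against VC, 0 of 82 were called in males (0.136% of all genes for BPA and 0.0273% for Mix) and 0 of 85 in females (0.0% for each). For Mix against BPA in male kidney, Lpl, which frees fatty acids from lipoproteins, was lower (log2 −1.43 ± 0.28, adjusted p = 0.0212), and Apoc3 (1.01) and Lpin2 (0.70) were higher, 3 of 82 tested beside 2.93% of all genes. Lpl had 17.5, 17.97 and 34.6 CPM in Mix, 62.3, 74.9 and 52.8 CPM in BPA and 24.0, 31.8 and 35.0 CPM in VC males. Averaged over the sexes in kidney, Acsl3 fell under BPA (log2 −0.85 ± 0.12, adjusted p = 0.0205), 1 of 85 beside 0.0172% of all genes. The sex difference of the BPA effect in kidney was called for 2 genes upward and 4 downward of 85, beside 4.73% of all genes in either direction, among them the carnitine acetyltransferase Crat (−1.16), the nuclear receptor Hnf4a (−1.40) and Lpl (1.85). In liver it was called for the fatty acid transporter Cd36 (4.13 ± 0.79, adjusted p = 0.0295), 1 of 86 beside 0.209% of all genes.

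Cd36 had 5.58, 4.27 and 1.45 CPM in BPA and 0.633, 0.786 and 0.389 CPM in VC male livers, and 10.9, 13.7 and 2.63 CPM in BPA and 22.1, 26.5 and 32.1 CPM in VC female livers. It was thus higher in each BPA male and lower in each BPA female than in the VC rats of that sex. In vehicle liver 6 of 86 were higher in males and 5 were higher in females (2.19% and 2.04% of all genes), with Cd36 (log2 −5.32), Acsl5 (−1.12) and the carnitine transporter Slc22a5 (−1.24) leading. In vehicle kidney 6 of 85 were higher and 4 lower in males (4.08% and 2.05%), led by Pecr (1.94), Crot (−1.62) and Hacl1 (1.21), all peroxisomal enzymes. In ovary 3 of 73 rose and 3 fell under BPA, shares near the 2.91% and 3.88% of all genes. Acot7 (log2 −0.999) and Fabp5 (log2 −1.45) were among those that fell, and under Mix only Esrra (−0.49, adjusted p = 0.0483) of the 73 fell, beside 4.99% of all genes. In testis Ncor1 (0.82) and Mgll (0.78), 2 of 72, were higher in Mix than in BPA, where 0.775% of all genes were called in either direction. Thyroid had no call, beside at most 0.00899% of all genes.

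Within liver, the genes that varied most like Cpt1a were not members. Over the 18 liver libraries, after subtracting group means, Pearson's r of log2 CPM with Cpt1a was 0.904 for Rreb1, 0.900 for Vcp and 0.899 for Psmc3 among 7139 genes, which share the libraries and their depth. Of the members, Creb3l3, a liver transcription factor that acts with the receptor in fasting, had r = 0.846 and Plin2 had 0.783. The median over members was 0.151 beside 0.0186 over all genes. Fabp1 was at the other end, with r = −0.812.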

How the data were processed

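Total RNA was extracted with TRIzol and libraries came from a QuantSeq 3′ mRNA kit, per the labels' protocols. The submitters' processing notes name FastQC, Bowtie2, bedtools, edgeR and the rat build rn6, without versions or roles. The deposited table holds the authors' raw counts per gene, whole numbers in 17048 rows for 70 libraries. How reads with several alignments and strand were treated is not given in the sources used here.

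Libraries were grouped by organ, sex and treatment from the labels. Each of the 8 combinations of organ and sex was fitted with edgeR 4.0.16 in R 4.3.3: filterByExpr, TMM, estimateDisp, glmQLFit and glmQLFTest, with Benjamini-Hochberg adjustment over all genes tested and a threshold of 0.05. Joint fits of both sexes in liver and kidney gave the average effect, the difference between the sexes and the vehicle sex difference, 36 comparisons in all. SE is the standard error of the log2 difference. Alternatives were DESeq2 1.42.0, no low-count filter, a 10 CPM filter, the replicate number as a block, leaving out each library, and the ribosomal RNA share as a covariate, the last added after seeing the data. On simulated counts of 9669 genes for BPA in male liver, the fit recovered 34% of 2-fold and 96% of 4-fold changes. In female kidney (10681 genes) it recovered 16% and 85%. Depth is 4803807 to 10929957 counts per library, and counting intervals are 95% exact and cover counting error only.

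The members and the gene lists were chosen with earlier results of these data known. In liver and kidney the text names each called member, or the 2 with the smallest p, and describes Ppara, Cpt1a, Pdk4, Angptl4, Ehhadh, the Cyp4a genes, Acot1, Fabp1, Vnn1 and Fgf21. In the other organs it names up to 6 called members or the 1 with the smallest p, and up to 3 called genes of the wider list, of which 1 is not reported here. Other members named with values were chosen after their values were seen. Promoter sequences are from RefSeq (GRCr8), and windows were aligned with Biopython 1.88.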

Additional observations from a re-analysis of the deposited data

Results flagged for a closer look

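The effect of BPA in kidney differed between males and females for 4 members in a direct test of the difference, edgeR's quasi-likelihood test with Benjamini-Hochberg adjustment, where 4.73% of all genes were called. The male minus female difference of the log2 fold change was −2.34 for Acaa1b, −2.14 for Eci1, −1.70 for Pex11a and −1.44 for Decr1. In each case the value was negative in the males and positive in the females. The female side rests on 2 BPA and 2 VC kidneys. Leaving out 1 library gave between 0 and 12 called members: 0 without female BPA replicate 2 (0.0163% of all genes) and 12 without female VC replicate 1 (9.06%).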

How the results depend on the processing

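No result turned its direction under any alternative that was run. For single genes, 1239 alternative values kept their side of the threshold, 86 lost a call and 40 gained one. For counts of members, 570 alternatives stayed within 1.5 times the main count and 87 did not, as follows. With the replicate number as a block, 0 members were called for BPA against VC in male liver and 1 in male kidney, and 1 for Mix against BPA in ovary. Same-numbered libraries did not pair in most combinations of organ and sex: the 69 correlations of their deviations ran between −0.481 and 0.344, and 12 were over 0.1. Of those 12, 6 were among the 9 of male kidney (−0.0716 to 0.293) and 3 among the 9 of female thyroid. Whether libraries were paired there was not tested.

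DESeq2 called 2 members for Mix against BPA in male liver, 4 for BPA in female liver, 9 for BPA and 5 for Mix against BPA in male kidney, and 1 each for BPA and Mix in female kidney. It called 2 for Mix and 1 for Mix against BPA in male thyroid, 4 for BPA and 8 for Mix in female thyroid, and 7 for BPA and 5 for Mix against BPA in ovary. Over both sexes of liver it called 2 for BPA and 1 for Mix, and 1 for the sex difference of BPA. In kidney it called 8 and 1 for the sex difference of BPA and of Mix, and 8 between vehicle males and females.

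Without the low-count filter, 2 members were called for Mix against BPA in male liver, 5, 1 and 2 for BPA, Mix and Mix against BPA in female liver, 3 for BPA in male kidney, 1 for BPA in female kidney and 2 for Mix against BPA in testis. It gave 1 each for Mix and Mix against BPA over both sexes of liver and 1 each for the sex differences of BPA and Mix there. A 10 CPM filter gave 1 for Mix against BPA in male kidney and 1 for Mix in female thyroid. The ribosomal RNA share as a covariate, an alternative chosen after seeing the data, gave 0 for Mix against BPA in male kidney, 9 for BPA and 7 for Mix in female kidney, 2 for Mix against BPA in testis, and 2 for BPA and 1 for Mix against BPA in ovary. TMM over the 70 libraries left 19 members that stood apart in liver (6.85% of all genes). The counts given here for DESeq2, the filters, the block and the covariate stand without the share of all genes called in the same fit. A higher count among them is therefore not a result about the members.

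Leaving out 1 library at a time moved the counts between these limits: 0 and 1 for BPA in male and in female liver, 0 and 9 for BPA and 0 and 6 for Mix against BPA in male kidney, 0 and 7 for BPA and 0 and 6 for Mix in female kidney, 0 and 5 for BPA and 0 and 6 for Mix in female thyroid, 0 and 1 for Mix against BPA in testis, 1 and 5 for BPA, 2 and 7 for Mix and 0 and 1 for Mix against BPA in ovary. Over both sexes of kidney they were 0 and 1 for BPA, 0 and 3 for Mix, 0 and 12 for the sex difference of BPA and 0 and 2 for that of Mix, and 4 and 9 between vehicle males and females, with 4 and 5 in liver. The extremes came without Mix replicates 1 or 2 in male kidney (9), female VC replicate 1 in kidney (7, 6 and 12) and VC replicate 1 in female thyroid (5 and 6), fits in which calls over all genes were also many (between 2.92% and 18.4%), and a lone remaining VC kidney was assumed to vary like the other groups.

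With 3 rats a group, changes near 2-fold are often missed, and members below about 5 CPM rest on few counts. A member without a call is therefore not shown to be the same between groups.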

Other observations

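The labels repeat sample codes across organs, so liver and kidney could be set side by side in 16 rats. Log2 levels with group means subtracted were correlated over the 16 rats, and 5184 exact permutations within groups gave a smallest possible p of 0.0001929. Of 32 members with enough counts in both organs, 4 had an unadjusted permutation p below 0.05, where 8.09% of 6714 genes did, and 0 members passed after Benjamini-Hochberg adjustment over those genes. The 4 were Ehhadh (Pearson's r = 0.546, Spearman's rho = 0.518, exact permutation p = 0.0224), Cyp4a3 (r = −0.547, rho = −0.679, p = 0.0189), Eci2 (r = 0.668, rho = 0.559, p = 0.0482) and Etfdh (r = 0.662, rho = 0.679, p = 0.0322). Without the 2 rats farthest from the median in liver, r was 0.813, −0.665, 0.483 and 0.569 in that order. A rat's level in liver thus gave no relation to its level in kidney that passed for any member. This relation was added after seeing the data.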
